A study of Homo sapiens with 4 samples.

Results

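The genes of human chromosome 8 were followed from the end of the short arm (8p) to the end of the long arm (8q) in cells with and without the C/EBPβ enhancer. Members were chosen by position and by level: every gene placed on chromosome 8 of GRCh37 whose mean FPKM (fragments scaled by transcript length and by depth) over the 4 libraries was at least 1. This gave 422 of the 12491 genes that passed the same filter on all chromosomes. Of 2287 chromosome 8 genes listed, 1128 were at 0 in all 4 libraries and 737 were above 0 in at least 1 library with a mean under 1. A further split of the latter showed 13 genes that reached a mean of 1 in a single genotype, 7 in WT cells alone and 6 in C/EBPβ enh−/− cells alone, and these are not members. Of the members, 10 had a WT mean under 1, FBXO32 and COLEC10 among them, and 3 had a C/EBPβ enh−/− mean under 1. These passed the filter through the genotype in which they were high and so had to differ. The chromosome was itself selected on the contrast between these genotypes, with its result known, so its medians are given as descriptions and no test was made of them.

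RNA-seq libraries came from WT cells (2 libraries) and from C/EBPβ enh−/− cells (2 libraries), and HepG2, a line from a human liver tumour, is the label of all 4. In C/EBPβ enh−/− cells the C/EBPβ enhancer had been deleted from both alleles with CRISPR/Cas9, and these are also called enhancer-deleted cells here. The comparison asks how loss of this enhancer alters RNA levels. Whether the deleted cells are 1 clone is not given in the sources used here, and nothing states that the libraries of a genotype came from separate cultures, so p-values measure only the spread between these libraries. CEBPB, the chromosome 20 gene on which the enhancer acts, stood at an FPKM of 30.6 and 19.2 in WT and 12.4 and 11.8 in enhancer-deleted libraries. The genotypes did not overlap, with a log2 difference of −0.94 (standard error 0.27) and an adjusted p of 0.125 in limma with Benjamini-Hochberg adjustment, which misses the threshold of 0.05.

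The label of a hepatocyte-derived line was checked against marker genes. All 20 hepatocyte markers, ALB, APOA1, AFP and HNF4A among them, were under an FPKM of 1 in every library, and FOXA2 and APOC3 were at 0 in all 4. The cells are therefore called by their labels and genotypes only. Of 5 epithelial markers, 2 reached a mean of 1, and the summed FPKM was 648 and 797 in WT and 238 and 238 in enhancer-deleted libraries, with KRT18 the most abundant. Of 5 mesenchymal markers, 4 reached a mean of 1, led by VIM, and their summed FPKM was 255 and 334 in WT and 206 and 158 in enhancer-deleted libraries. Endothelial and blood cell markers had no gene with a mean of 1 among those found in the data, and PECAM1, of the endothelial list, was not matched. The part of these marker levels in the chromosome 8 values was not tested, and in bulk samples fewer cells of a type and less RNA per cell cannot be told apart.

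A chromosome is not a functional unit: neighbouring genes mostly serve unrelated processes, although some families, such as the defensins and the zinc finger genes, lie in clusters. Chromosome 8 carries MYC, a transcription factor gene that drives growth, and genes for ribosomal proteins, DNA repair enzymes, death receptors and sterol synthesis. The death receptor genes lie together on 8p and MYC lies on 8q, in a region with few other protein-coding genes.

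Chromosome 8 genes were higher in enhancer-deleted than in WT cells, relative to the rest of the genome. Every difference was taken as the C/EBPβ enh−/− mean minus the WT mean of log2(FPKM + 1). Over all 12491 genes its median was −0.14, and values given as relative have this median subtracted. The 422 members had a median relative difference of 0.35, with a spread between libraries of 0.051, and quartiles of 0.045 and 0.58. On the linear scale the median FPKM ratio of C/EBPβ enh−/− to WT was 1.20 over members and 0.894 over all genes with values above 0 in every library. Above 0 on the relative scale were 333 of 422 members (78.9%), against 50.0% of all genes, a share fixed by subtracting their median. Before that subtraction, 292 members (69.2%) were above 0, against 37.4% of all genes.

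The 4 pairings of libraries share the same 4 libraries and are given as a range, not as repeats. The median relative difference of the members was 0.36 for C/EBPβ enh−/− library 1 minus WT library 1, 0.44 for library 1 minus WT library 2, 0.29 for library 2 minus WT library 1 and 0.36 for library 2 minus WT library 2. Within genotypes, library 2 minus library 1 gave −0.057 in WT and −0.084 in C/EBPβ enh−/− cells. After each library had been centred on its median, both C/EBPβ enh−/− values lay above both WT values in 240 members and below them in 33, while over all genes these shares were 26.5% and 26.6%. Since the chromosome was chosen for this contrast, nothing is read from these pairings or shares.

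Of 23 chromosomes with at least 100 tested genes, chromosome 8 had the highest median, and it ranked first in 4 of 4 pairings. Chromosomes 6 and 4 came next, with medians of 0.25 (647 genes) and 0.21 (435 genes). The gap of 0.097 between chromosomes 8 and 6 was not tested. The lowest medians were those of chromosomes 13 (−0.36), 21 (−0.34) and 17 (−0.34). Between libraries of 1 genotype, the order was different: chromosome 8 ranked 21 in WT library 2 minus 1 and 22 in C/EBPβ enh−/− library 2 minus 1, counted from the highest. Chromosome 8 was chosen for the contrast between genotypes and the pairings share libraries, so nothing is read from its ranks or from this change of order.

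**Figure D1:**
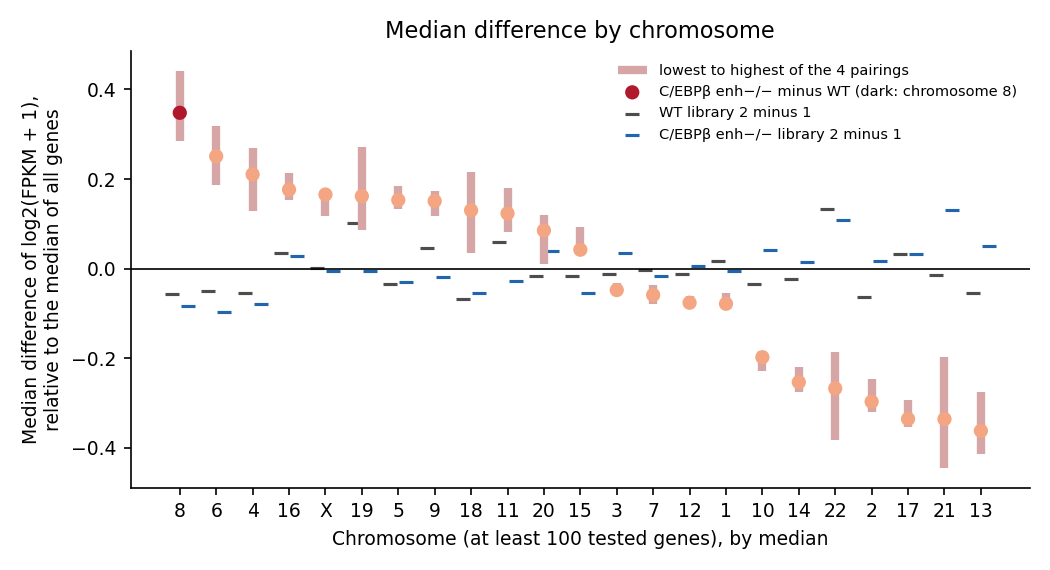
Median difference of log2(FPKM + 1) on each chromosome with at least 100 tested genes, relative to the median of all genes. Large points give C/EBPβ enh−/− minus WT, bars the lowest to highest of the 4 pairings of libraries, and dashes the differences between libraries of 1 genotype. Chromosome 8, in dark red, has the highest median (0.35) and chromosome 13 the lowest (−0.36).

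The share of all FPKM that fell on chromosome 8 did not separate the genotypes: it was 2.47% and 2.44% in WT and 2.34% and 2.70% in the enhancer-deleted libraries. With the 5 highest genes of each library left out, it was 3.18% and 3.01% in WT and 3.61% and 3.73% in enhancer-deleted libraries, and both C/EBPβ enh−/− values were then the higher ones. FPKM divides each gene by the library total, so very abundant genes elsewhere in the genome enter the value of every member. For this reason medians and most differences of single genes are given on the relative scale. The limma tests were made on unshifted values, and each p belongs to the unshifted difference.

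Both arms were higher in C/EBPβ enh−/− cells. The 145 members on 8p had a median relative difference of 0.41 and the 277 members on 8q one of 0.32, with spreads between libraries of 0.066 and 0.043. The pairings ranged from 0.32 to 0.48 on 8p and from 0.26 to 0.41 on 8q. Above 0 were 114 members on 8p (78.6%) and 219 on 8q (79.1%). The 8q median was lower than the 8p median by a difference of −0.090, which lay between −0.098 and −0.051 in the 4 pairings. Between libraries of 1 genotype, the same difference between arms was 0.011 in WT and 0.050 in C/EBPβ enh−/− cells. The size of the C/EBPβ enh−/− minus WT value depended on single libraries, being −0.033 without WT library 1, −0.041 without C/EBPβ enh−/− library 1 and −0.13 without C/EBPβ enh−/− library 2.

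The chromosome was then cut into 15 windows of 10 Mb, numbered from the end of 8p, with each gene placed by its midpoint. The centromere, a gap of 3000000 bp in the GRCh37 sequence, lies in window 5. All 14 windows with at least 10 members had a median above 0, from 0.22 in window 9 to 0.62 in window 1. In each of these 14 windows both C/EBPβ enh−/− libraries lay above both WT libraries. The windows divide a chromosome selected on this contrast, so nothing is read from their agreement. Window 14 held 9 members and is not ranked: its median was −0.022, with 4 members above 0 and pairings from 0.0087 to 0.17.

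**Figure D2:**
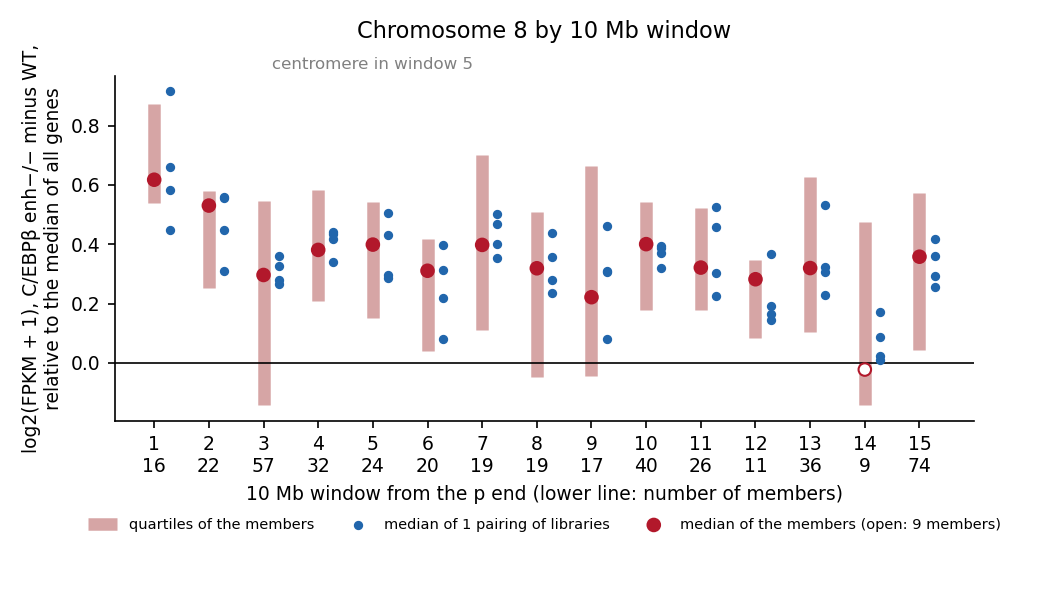
Relative difference of log2(FPKM + 1), C/EBPβ enh−/− minus WT, in each 10 Mb window of chromosome 8 numbered from the p end. Red points are medians over members, bars their quartiles and small blue points the medians of the 4 pairings of libraries. Medians of the 14 windows with at least 10 members lie between 0.22 and 0.62, and window 14 (open point) has 9 members.

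A like height along a whole chromosome was not particular to chromosome 8, although its level was high. On 7 of 23 chromosomes every 10 Mb window with at least 10 tested genes had a median above 0, and chromosomes 4, 6 and 8 were among them, the first 2 with 16 of 16 windows each. The lowest window was 0.087 on chromosome 4 and 0.013 on chromosome 6, compared with 0.22 on chromosome 8. Off chromosome 8, 137 of 269 windows (50.9%) were above 0 and 42 (15.6%) were above 0.22, the lowest ranked window of chromosome 8. That lowest value depends on how windows are placed, being 0.023 with 5 Mb windows and 0.12 with 10 Mb windows shifted by 5 Mb. These shares describe the libraries and were not tested.

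Within the 14 ranked windows, median differences between libraries of a genotype ranged from −0.32 to 0.095 for WT library 2 minus 1 and from −0.27 to 0.088 for C/EBPβ enh−/− library 2 minus 1. Window 1 was the most variable as well as the highest. Its 16 members deviated from their 4-library mean by a median of −0.21 and −0.48 in WT and 0.46 and 0.20 in the enhancer-deleted libraries, so library 1 and library 2 of a genotype differed by more there than in any other ranked window. In window 15, which holds 74 members and the gene-dense end of 8q, the deviations were −0.23 and −0.12 in WT and 0.14 and 0.20 in enhancer-deleted libraries. This window has the highest GC content, 51.5%, and a median of 0.36. Windows 12 and 9, with the lowest GC content (36.2% and 37.1%), had the lowest ranked medians (0.28 and 0.22). The order was not the same throughout: window 3, with a GC content of 43.3%, had 0.30, and window 7, with 38.5%, had 0.40. The part of GC content was not tested.

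**Figure D3:**
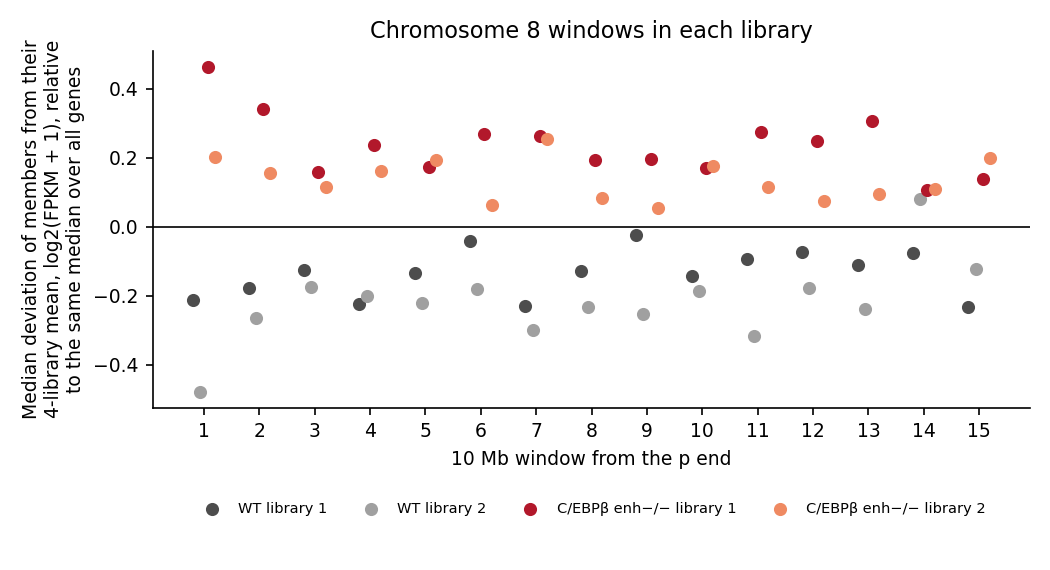
Median deviation of the members of each 10 Mb window from their own 4-library mean, in log2(FPKM + 1) and relative to the same median over all genes, 1 point per library. In the 14 windows with at least 10 members, the WT points (greys) lie below 0 and the C/EBPβ enh−/− points (reds) above it.

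Single genes scattered widely around these medians. Of 72 genes named in this text and refitted, 40 had a relative difference that moved by more than 1.5 times or turned when 1 library was left out, 31 of them without C/EBPβ enh−/− library 1. In order along the chromosome, the running median over 21 members was above 0 at 394 of 402 positions and ranged from −0.021 to 0.60. It was lowest around LOXL2 in window 3 and highest in window 1. The longest stretch of neighbouring members below 0 held 4 genes and the longest above 0 held 19.

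**Figure D4:**
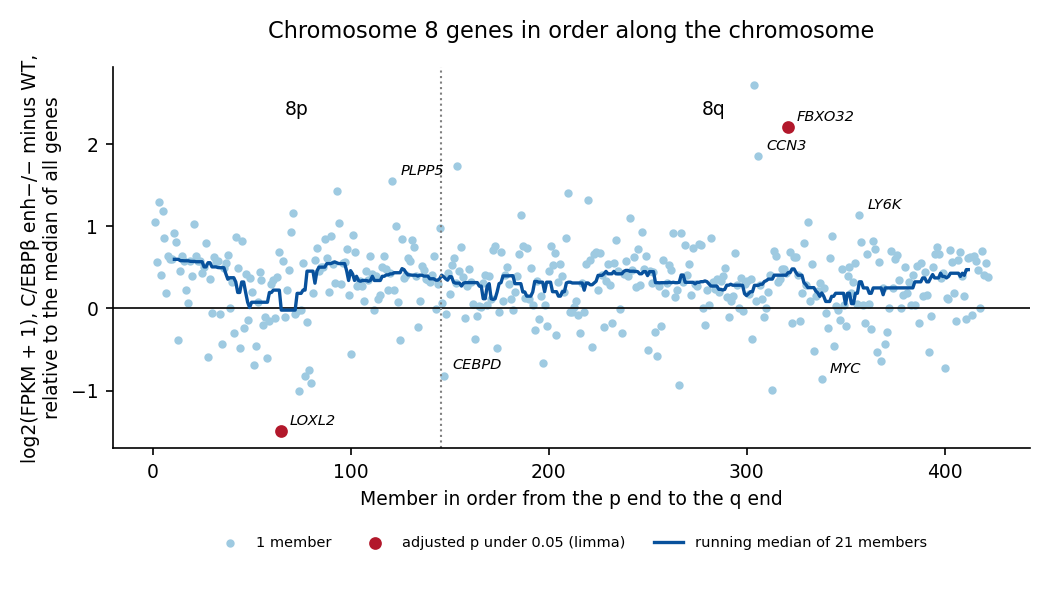
Relative difference of log2(FPKM + 1), C/EBPβ enh−/− minus WT, of each of the 422 members in order from the p end to the q end, with the running median of 21 members (dark line). The dotted line separates 8p from 8q, and red points mark LOXL2 and FBXO32, the 2 members with an adjusted p under 0.05 in limma.

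On distal 8p, windows 1 and 2 had medians of 0.62 (16 members, 15 above 0) and 0.53 (22 members, 18 above 0). Among members whose mean FPKM was 5 or more, the largest difference in window 1 was that of CLN8-AS1, a noncoding RNA antisense to CLN8. Its FPKM was 4.87 and 3.79 in WT and 11.5 and 8.58 in enhancer-deleted libraries, a relative difference of 1.19. CLN8, an endoplasmic reticulum membrane protein gene, lies on the opposite strand of the same place and had a relative difference of 0.86. Whether reads were assigned by strand is not given in the sources used here, so the pair may share reads. The smallest in window 1 was ERI1, a 3′ exoribonuclease that acts on histone mRNA, with 0.45, so no member of that level was below 0 there. In window 2, at the same level, the range ran from −0.44 for SH2D4A, an SH2-domain adaptor, to 1.03 for FDFT1, squalene synthase.

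Window 3 was the most mixed of the ranked windows: 36 of its 57 members were above 0, its lower quartile was −0.14 and its median 0.30. It held both the lowest member of the chromosome, LOXL2, and CDCA2, which recruits protein phosphatase 1 to mitotic chromatin. CDCA2 had an FPKM of 7.80 and 10.8 in WT and 27.3 and 14.1 in enhancer-deleted libraries, a relative difference of 1.16 with no overlap between genotypes. Window 4 had 29 of 32 members above 0 and a median of 0.38. PLPP5, a phospholipid phosphatase, led it with 4.54 and 7.71 in WT and 24.8 and 12.2 in enhancer-deleted libraries (relative difference 1.55). GSR, glutathione reductase, was at the other end with 36.5 and 42.7 in WT and 26.2 and 22.1 in enhancer-deleted libraries (−0.55), again without overlap.

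Around the centromere, window 5 had a median of 0.40 and 20 of 24 members above 0. Its lowest member was CEBPD, which encodes C/EBPδ, a transcription factor of the same family as C/EBPβ. The FPKM of CEBPD was 9.55 and 16.5 in WT and 4.87 and 7.34 in enhancer-deleted libraries, so the gene was lower in both enhancer-deleted libraries than in either WT library. Its log2 difference was −0.96, with an unadjusted p of 0.0204 in limma and an adjusted p of 0.161 after Benjamini-Hochberg adjustment. CEBPD therefore did not pass the adjusted threshold, and its relative difference was −0.82. HGSNAT, a lysosomal acetyltransferase of heparan sulfate breakdown, was at the other end of the window with 0.98.

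On proximal 8q, windows 6 to 9 had medians of 0.31, 0.40, 0.32 and 0.22, with 17 of 20, 16 of 19, 14 of 19 and 11 of 17 members above 0. Among members whose mean FPKM was 5 or more, the largest differences were those of ATP6V1H, a subunit of the lysosomal proton pump (0.75), the snoRNA host gene SNHG6 (0.76), the ubiquitin-conjugating enzyme gene UBE2W (0.75) and the ubiquitin ligase gene WWP1 (0.68), 1 in each of these windows in that order. The smallest at that level were those of the kinase gene LYN (−0.37), the hydroxylase gene ASPH (−0.48), the retinol dehydrogenase gene RDH10 (−0.67) and the transcription factor gene E2F5 (−0.47). Several of these rested on 1 library: ATP6V1H was at 28.1 and 24.1 in WT and 55.0 and 29.5 in enhancer-deleted libraries, WWP1 at 6.11 and 6.49 and then 12.8 and 7.22, and without C/EBPβ enh−/− library 1 both were at 0.37. ASPH and RDH10 also varied within a genotype: ASPH had an FPKM of 62.8 and 122 in the enhancer-deleted libraries against 125 and 145 in WT, and RDH10 had 131 and 252 in WT against 78.8 and 136 in the enhancer-deleted libraries.

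In the middle of 8q, windows 10, 11 and 12 had medians of 0.40, 0.32 and 0.28, with 31 of 40, 24 of 26 and 9 of 11 members above 0. The genes named here for these windows are again the extremes at a mean FPKM of 5 or more. VPS13B, which encodes a lipid transfer protein of the Golgi, was the largest in window 11, with an FPKM of 6.41 and 4.98 in WT and 11.2 and 9.72 in enhancer-deleted libraries (relative difference 0.92). ENY2, a subunit of the SAGA coactivator, was the largest in window 12, with 0.68. The largest in window 10 was GEM, a small GTPase gene, whose 1.10 rested on 1 library: its FPKM was 2.20 and 6.38 in WT and 17.2 and 3.90 in enhancer-deleted libraries. The smallest differences at this level were −0.30 for CIBAR1, −0.20 for the transcription factor gene KLF10 and −0.37 for SAMD12. KLF10 had an FPKM of 12.3 and 5.54 in WT and 9.12 and 4.37 in enhancer-deleted libraries, which overlap, and its difference turned to 0.32 without WT library 1.

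Distal 8q held the extremes of the long arm. Window 13 had a median of 0.32 and 29 of 36 members above 0, yet its smallest difference at a mean FPKM of 5 or more was that of MYC. The FPKM of MYC was 109 and 108 in WT and 46.1 and 62.8 in enhancer-deleted libraries, a log2 difference of −0.9998 (adjusted p = 0.0878 in limma with Benjamini-Hochberg adjustment) and a relative difference of −0.86, and the genotypes do not overlap. The largest at this level was that of CCN3, a secreted matricellular protein gene, at 6.95 and 5.92 in WT and 50.0 and 10.6 in enhancer-deleted libraries (1.85), where C/EBPβ enh−/− library 1 stood far above library 2. COLEC10, a collectin gene chosen after its values were seen, had the largest difference of any member: its FPKM was 0.0922 and 0.0579 in WT and 11.1 and 2.44 in enhancer-deleted libraries (relative difference 2.72). Its log2 difference of 2.58 had an adjusted p of 0.0738 in limma with Benjamini-Hochberg adjustment. The WT mean was 0.0750, so COLEC10 is a member through the C/EBPβ enh−/− libraries alone. Without C/EBPβ enh−/− library 1 its relative difference was 1.87. In some alternatives, such as a pseudocount of 0.1 or the fit without C/EBPβ enh−/− library 2 (adjusted p = 0.0350, same test), COLEC10 passed the threshold, and since it was picked by its values nothing is read from this.

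At the end of the arm, window 14 ran from NDRG1, a stress-responsive gene (−0.46), to PHF20L1, a chromatin reader gene (0.88). The value of NDRG1 came from C/EBPβ enh−/− library 2, at 14.9, since library 1 was at 46.1 and the WT libraries at 36.6 and 45.0. In window 15, 60 of 74 members were above 0. LY6K, a GPI-anchored surface protein gene, was the largest, with an FPKM of 56.0 and 57.8 in WT and 134 and 97.9 in enhancer-deleted libraries (1.14). The smallest at a mean FPKM of 5 or more was GSDMD, the pore-forming protein of pyroptosis, with 8.10 and 7.89 in WT and 3.55 and 5.05 in enhancer-deleted libraries (−0.64).

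Two-sided limma tests with Benjamini-Hochberg adjustment over the 12491 genes called 1 member lower and 1 member higher in C/EBPβ enh−/− cells, while 1.21% of all genes were called lower and 0.248% higher. LOXL2 (ENSG00000134013.11, GRCh37 chromosome 8 from 23154410 to 23282841, minus strand) encodes an enzyme that crosslinks collagen. Its FPKM was 14.9 and 11.4 in WT and 3.94 and 3.13 in enhancer-deleted libraries. The gene fell by 1.63 on the log2 scale (standard error 0.24, adjusted p = 0.0325, limma with Benjamini-Hochberg adjustment), or −1.49 on the relative scale. FBXO32 (ENSG00000156804.3, from 124510129 to 124553446, minus strand), an F-box protein of a ubiquitin ligase known from muscle wasting, was at an FPKM of 0.947 and 0.608 in WT and 7.06 and 5.83 in enhancer-deleted libraries. Its log2 difference was 2.07 (standard error 0.26, adjusted p = 0.0208, limma with Benjamini-Hochberg adjustment), and with a mean FPKM under 5 it was named after its values were seen. Its WT mean was 0.777, so it passed the filter only through the C/EBPβ enh−/− libraries and had to differ. Its p and the count of 1 higher call are given as a description, and nothing is read from them. The gene is outside the fit that asks for a mean FPKM of 5.

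Neither call held without any 1 of the 4 libraries. The relative difference of LOXL2 then lay between −1.67 and −1.30. FBXO32 also kept its direction, but it passed the filter only through the C/EBPβ enh−/− libraries and had to differ. Nothing is therefore read from the direction of FBXO32. With each library centred on its median, LOXL2 had an adjusted p of 0.0537. An exact two-sided permutation of the 4 libraries has 0.333 as its lowest p, so it can call no gene.

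At an unadjusted p under 0.05 in limma, 19 members were lower and 46 higher, when 16.9% of all genes were lower and 3.86% higher. The split depends on the scale: centred on the library medians, 11 members were lower and 124 higher, when 10.1% of all genes were lower and 9.14% higher. These counts come from the contrast on which the chromosome was chosen, and nothing is read from them.

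The genes were also grouped by function. The lists were drawn up by knowledge of the chromosome and with earlier results of these data known, so nothing is read from their medians or counts. No list had a member past the adjusted threshold, so counts at an unadjusted p under 0.05 from the same limma fit are given. Over all genes these were 16.9% lower and 3.86% higher, and after centring 26.5% lay above and 26.6% below WT in both C/EBPβ enh−/− libraries. The lists were not compared with these shares by any test. Medians are relative differences and are set beside 0.35 for all members.

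Genes of DNA replication, repair and cohesion were among the higher groups. Of 19 members, 18 were above 0, against 78.9% of all members, and their median was 0.53. After centring, 14 had both C/EBPβ enh−/− values above both WT values, against 56.9% of members and 26.5% of all genes. None passed the adjusted threshold, and at an unadjusted p under 0.05 there was 1 higher (3.86% of all genes) and 0 lower (16.9%). The most abundant were RAD21, a subunit of the cohesin ring, at 106 and 98.7 in WT and 127 and 108 in enhancer-deleted libraries (0.34), and MCM4, a subunit of the replicative helicase, at 88.0 and 85.1 in WT and 118 and 94.9 in enhancer-deleted libraries (0.43). The largest differences were those of CCNE2, cyclin E2 (0.93), and RRM2B, a ribonucleotide reductase subunit induced by p53 (0.77). CCNE2 was at 7.77 and 12.7 in WT and 19.6 and 16.5 in enhancer-deleted libraries, which do not overlap, and had 0.62 without WT library 1. RRM2B was at 7.37 and 9.43 in WT and 18.8 and 9.56 in enhancer-deleted libraries, where library 2 was about level with WT library 2, and had 0.37 without C/EBPβ enh−/− library 1.

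All 12 zinc finger genes at the end of 8q were above 0, with relative differences from 0.0067 to 0.72 and a median of 0.62, and 10 had C/EBPβ enh−/− values above WT values after centring, against 56.9% of members and 26.5% of all genes. None passed the threshold, and 0 had an unadjusted p under 0.05. ZNF7 was at 7.59 and 7.17 in WT and 10.5 and 10.2 in enhancer-deleted libraries, and ZNF623 at 7.43 and 6.04 and then 9.04 and 10.2. ZNF696 and ZNF16, with the largest differences of 0.72 and 0.70, were expressed at a mean FPKM of 3.76 and 3.29. Genes of this family resemble each other in sequence, and how the authors' counting treated shared reads is not given in the sources used here.

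Transcription and chromatin factors had 14 of 17 members above 0 and a median of 0.48, with 0 past the threshold and 4 higher and 2 lower at an unadjusted p under 0.05. POLR2K, a subunit shared by the RNA polymerases, was at 42.7 and 42.7 in WT and 82.9 and 53.4 in enhancer-deleted libraries (0.77). ELOC, elongin C, was at 42.1 and 44.8 in WT and 67.8 and 48.4 in enhancer-deleted libraries (0.53). HEY1, a Notch target that represses transcription, had the largest difference of the group, 1.40, from 2.25 and 0.940 in WT and 5.74 and 4.39 in enhancer-deleted libraries. CEBPD went the other way, as given above.

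Translation genes were among the most abundant of the chromosome, with relative differences from −0.28 to 0.47. After centring, 5 had C/EBPβ enh−/− values above WT values (26.5% of all genes) and 1 below (26.6%). Of 13 members, 7 were above 0 and the median was 0.15, with 0 past the threshold and 0 at an unadjusted p under 0.05. The 5 members of highest mean FPKM on the chromosome were RPS20, RPL7, RPL30, RPL8 and EEF1D, 4 of them ribosomal protein genes and the last an elongation factor subunit. RPS20 was at 1288 and 1215 in WT and 1138 and 1001 in enhancer-deleted libraries (−0.089), and RPL7 at 979 and 1055 in WT and 970 and 1078 in enhancer-deleted libraries (0.15). RPL30 and RPL8 had relative differences of 0.19 and −0.085 and EEF1D of −0.28. The mitochondrial ribosomal protein gene MRPL15 (0.47) and the m6A reader gene YTHDF3 (0.41) had the largest differences of the list. Ribosomal protein genes have many processed pseudogenes, so their FPKM values are uncertain.

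Mitochondrial protein genes had 11 of 16 members above 0 and a median of 0.21, with 0 past the threshold and 0 higher and 1 lower at an unadjusted p under 0.05. COX6C, of cytochrome c oxidase, was at 235 and 237 in WT and 288 and 247 in enhancer-deleted libraries (0.32), and UQCRB, of complex III, at 192 and 183 in WT and 219 and 249 in enhancer-deleted libraries (0.45). The assembly factor gene NDUFAF6 had 0.48 and the mitochondrial topoisomerase gene TOP1MT, at 6.39 and 7.30 in WT and 3.31 and 4.64 in enhancer-deleted libraries, had −0.53. Lipid, amino acid and liver metabolism genes had 16 of 24 listed genes as members, 9 of them above 0, with a median of 0.16, and 0 past the threshold, with 1 higher and 2 lower at an unadjusted p under 0.05. LPL, lipoprotein lipase, was at 148 and 94.8 in WT and 201 and 144 in enhancer-deleted libraries (0.65), which overlap. The sterol synthesis genes FDFT1 and SQLE had 1.03 and 1.05, but both varied within genotypes: SQLE, squalene epoxidase, was at 9.16 and 19.2 in WT and 40.7 and 16.4 in enhancer-deleted libraries.

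Of 18 receptor, adhesion and signalling genes, 11 were above 0, with a median of 0.14. After centring, 6 had C/EBPβ enh−/− values above WT values (26.5% of all genes) and 6 below (26.6%). None passed the threshold, and 3 were higher (3.86% of all genes) and 3 lower (16.9%) at an unadjusted p under 0.05. CLU, the secreted chaperone clusterin, was at 236 and 175 in WT and 96.2 and 123 in enhancer-deleted libraries (−0.76), and SDC2, the proteoglycan syndecan-2, at 94.4 and 90.7 in WT and 70.9 and 66.5 in enhancer-deleted libraries (−0.29). DUSP4, a MAP kinase phosphatase, had 1.43, from 0.868 and 1.92 in WT and 8.29 and 2.51 in enhancer-deleted libraries. In DUSP4 as in CCN3, C/EBPβ enh−/− library 1 was the highest, and that library had the lowest relative depth, 0.551 of WT library 1; the part of depth in these values was not tested.

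The TRAIL receptor and cell death list was the only one of those with members whose median was below 0, at −0.031, with 3 of 7 members above 0, 0 past the threshold and 1 lower and 0 higher at an unadjusted p under 0.05. TNFRSF10B, the death receptor DR5, was at 29.0 and 30.6 in WT and 28.6 and 21.9 in enhancer-deleted libraries (−0.10), and TNFRSF10A, the receptor DR4, at 8.10 and 8.99 in WT and 12.6 and 7.82 in enhancer-deleted libraries (0.34). The value of TNFRSF10A came from C/EBPβ enh−/− library 1, since library 2 was below both WT libraries. BNIP3L, a mitophagy receptor gene, had −0.031, and GSDMD was the gene with the unadjusted p under 0.05.

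Of 13 listed genes of 8p that are discussed as tumour suppressors, 8 were members, 5 of them above 0 with a median of 0.19, and 0 passed the threshold, with 1 higher and 0 lower at an unadjusted p under 0.05. CNOT7, a deadenylase, was at 30.2 and 36.7 in WT and 42.6 and 43.8 in enhancer-deleted libraries (0.50), and PPP2R2A, a regulatory subunit of protein phosphatase 2A, at 20.2 and 10.6 in WT and 13.3 and 11.9 in enhancer-deleted libraries (−0.069). Of 21 listed genes of 8q that are discussed in cancers, 19 were members, 13 of them above 0 with a median of 0.15, and 0 passed the threshold, with 0 higher and 1 lower, MYC, at an unadjusted p under 0.05. YWHAZ, a 14-3-3 protein gene, was at 147 and 142 in WT and 177 and 142 in enhancer-deleted libraries (0.27), and LAPTM4B, a lysosomal membrane protein gene, at 126 and 123 in WT and 97.2 and 96.8 in enhancer-deleted libraries (−0.22).

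Of the clustered families, the 9 defensin genes listed at the end of 8p were at 0 in all 4 libraries. Of 10 genes listed for the LY6 family at the end of 8q, 2 were members, LY6K and LY6E. LY6E was at 82.3 and 97.9 in WT and 63.6 and 81.6 in enhancer-deleted libraries (−0.17), where enhancer-deleted library 2 was just under WT library 1.

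The members were also divided by level of expression and by kind of gene. These classes divide a chromosome selected on this contrast, so nothing is read from their agreement. The median relative difference was 0.37 in the 119 members with a mean FPKM from 1 to under 5, 0.35 in the 173 from 5 to under 20 and 0.31 in the 130 from 20. Over all genes the same classes had 0.050, 0.0037 and −0.063. The 380 protein-coding members had a median of 0.34, the 32 lncRNA genes 0.36 and the 10 genes of other types 0.45, with spreads between libraries of 0.051, 0.14 and 0.16. Over all genes these kinds had −0.0096, 0.054 and 0.060. In 86 pairs, members overlapped each other, 67 of them on opposite strands, and the 278 members outside such pairs had a median of 0.32.

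The threshold of membership passed through genes of similar values. Just inside were PLAT, tissue plasminogen activator, with a mean FPKM of 1.001 and a relative difference of −0.23, RNF122 with 1.005 and 0.34, and ZNF596 with 1.02 and 0.57. Just outside were LRRC69 with 0.996 and −0.060, ZHX2 with 0.984 and −0.18, and FOXH1 with 0.979 and 0.28. PLAT had a C/EBPβ enh−/− mean of 0.749, and RNF122 and ZNF596 had WT means of 0.865 and 0.685. These members passed the filter through the genotype in which they were high and so had to differ. Both sides held positive and negative differences, and nothing is read from these signs.

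These values describe 4 libraries, 2 per genotype, labelled with the name of a line whose hepatocyte markers are absent here. The chromosome, its members and the lists were selected on the measured values or with them known, so the medians cannot be read as tests. FPKM depends on all other genes of a library, and read counts were not recovered. Genes without a position, overlapping genes and members of similar families add uncertainty to single values. No explanation of the difference was tested.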

How the data were processed

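RNA was measured by RNA-seq in 2 WT and 2 C/EBPβ enh−/− libraries, grouped by their labels. The authors deposited FPKM for every gene of each library. The submitters' processing notes name TopHat2 2.0.13, Cufflinks, edgeR and hg19, with no role given. Of 57815 entries, 57768 remained without pseudoautosomal copies on chromosome Y, and 55535 had a position in GENCODE release 44 lifted to GRCh37. The other 2233, 293 of them with a mean FPKM of at least 1, stayed in the fit without a chromosome.

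Genes whose mean FPKM reached 1 were tested on log2(FPKM + 1) with limma 3.58.1 in R 4.3.3 (lmFit, eBayes with a trend, no replicate block). Tests were two-sided, adjusted after Benjamini-Hochberg, and the threshold was 0.05. Fold changes on this scale understate changes of low genes. The fit was tested on simulated data. Arms were divided at the centromere gap. The spread of a median was the square root of the sum of squared median differences within genotypes, divided by 4 before the root, as for a difference of means of 2 libraries. Windows with under 10 members were not ranked.

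FPKM totals were 545795.0 and 536884.2 in WT and 614111.2 and 484072.7 after enhancer deletion. Depth relative to WT library 1, read from the spacing of values under 0.3, was 1.12 in WT library 2 and 0.551 and 1.23 in the enhancer-deleted libraries. Only 48.8% to 53.3% of low values came within 0.1 of whole fragments, so no counts were recovered, and precision is limited by n = 2.

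Named genes were CEBPB, list members with the highest mean FPKM or largest difference, members past the threshold with a mean FPKM of at least 5 and no overlap, the 5 most abundant members, the largest and smallest difference per window at a mean FPKM of at least 5, and 3 genes on either side of the filter. Members and lists were chosen with earlier results of these data known.

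Alternatives were no filter, a filter at a mean FPKM of 5, a pseudocount of 0.1, equal library totals, centring on the median, loess correction for GC content and length (known for 12198 genes, 97.7%), protein-coding genes, genes above 0 in every library, each library left out, means for medians, other windows, limma without the trend, a fold minimum and the replicate block. Python 3.11.15, pandas 2.3.3 and matplotlib 3.10.9 made the tables and figures.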

Additional observations from a re-analysis of the deposited data

How the results depend on the processing

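The chromosome 8 median of 0.35 kept its direction in 12 of 13 alternatives. With no filter on low values, where most genes are at or near 0, the medians of the chromosome, of 8p and of 8q and the difference between arms were all 0. With a pseudocount of 0.1 the chromosome median was 0.41 and that of 8q 0.36. With 1 library left out, 8p ranged from 0.37 to 0.49, 8q from 0.29 to 0.37, and 8q minus 8p from −0.13 to −0.033. Corrected for GC content and length, 8q minus 8p was −0.12. The causes were not tested. All windows with at least 10 members stayed above 0 with 5 Mb windows (17 windows, from 0.023), 10 Mb windows shifted by 5 Mb (15 windows, from 0.12) and a mean FPKM of at least 5 (13 windows, from 0.11).

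The 2 calls in limma became 0 with no filter (38 lower and 83 higher at an unadjusted p under 0.05, against 4.60% and 1.92% of all genes), 1 at a mean FPKM of 5 or more, 1 centred on the median, 1 corrected for GC content and length, 3 with a pseudocount of 0.1 and 3 without genes at 0 in any library (COLEC10 added in both), and 7 (3 lower, 4 higher) among protein-coding genes alone. Calls over all genes moved too, from 182 of 12491 (1.46%) to 371 of 12379 without genes at 0 and 517 of 10909 (4.74%) among protein-coding genes, so nothing is read from the higher counts. With 1 library left out, there were 0 to 1, with 9 to 23 members lower and 17 to 70 higher at an unadjusted p under 0.05, when 9.43% to 15.1% of all genes were lower and 1.93% to 7.41% higher in these fits. In such a fit the lone library is assumed to vary like the others. The replicate block gave 2 calls, and the block together with the GC and length correction 0, with 8 lower and 96 higher at an unadjusted p under 0.05 (9.97% and 8.12% of all genes). The correlation across genes between the deviations of libraries with the same number was 0.0094.

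Of 72 named genes, 64 kept the sign of their relative difference in every alternative run. The others turned only when 1 library was left out, over ranges from −0.20 to 0.051 (RPL8), −0.99 to 0.047 (ASPH), −0.71 to 0.32 (KLF10), −1.19 to 0.28 (NDRG1), −0.23 to 0.046 (TNFRSF10B), −0.22 to 0.17 (BNIP3L), −0.50 to 0.38 (PPP2R2A) and −0.39 to 0.058 (LY6E). The depth of reads behind each value is unknown, which limits these small differences.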
